A study of Mus musculus with 6 samples.

Results

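Genes of the cell cycle were described in whole hearts of mice that over-express the adenosine A2a receptor. The list held 37 genes: cyclins, cyclin-dependent kinases (CDKs), their inhibitors, Rb1 and E2f1, replication genes and mitosis genes. A gene was counted as measured where a row of the deposited table carried its symbol alone, and where 4 of the genes had 2 such rows, the row with the higher mean over the 6 hearts was used. On that basis 35 of the 37 were measured, out of 19938 measured genes in all. Cdkn1a, which encodes the p53-induced inhibitor p21, shares its row with another symbol and was not used here, and Ccnb1, cyclin B1, was not analysed here.

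RNA was profiled on Affymetrix Mouse Gene 1.0 ST arrays, 1 array per heart, in 3 A2a-R transgenic mice and 3 wild-type littermates, all male and of the FVB strain. Every mouse in both groups had transverse aortic constriction (TAC), an operation that narrows the aorta and loads the left ventricle with pressure, at the age of 8 weeks, and the heart was taken 14 weeks after surgery. The transgene was cardiac-specific and inducible; the labels name neither its promoter nor whether and when it was induced. No unoperated hearts were analysed here, so a genotype effect cannot be separated from its interaction with TAC. The transgene's own gene, Adora2a, had no row with its symbol alone, so the genotype labels could not be checked by its level. The 8 cardiomyocyte markers had mean log2 values of at least 10.63 in both groups. Across the 21789 rows with 1 symbol, which are not independent replicates, Pearson's r between hearts was 0.9958 to 0.9973 within a genotype and 0.9926 to 0.9957 between genotypes.

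The cell cycle is driven by cyclins that bind and activate CDKs. D-type cyclins with Cdk4 or Cdk6 start the phosphorylation of the retinoblastoma protein, E-type cyclins with Cdk2 complete it, and freed E2F factors then switch on the genes of DNA replication; later, cyclins A and B with Cdk1 drive mitosis. Adult mouse cardiomyocytes rarely divide, whereas fibroblasts, endothelial cells and leukocytes of a loaded heart can, so whole-heart RNA of these genes mixes cell types. In whole tissue, fewer cells of a type and less RNA per cell cannot be told apart.

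Ccnd1, cyclin D1, was the one gene of the list at a limma adjusted p below 0.05, and it fell. Its deposited log2 values were 9.69, 9.73 and 9.69 in the transgenic hearts and 10.08, 10.08 and 10.03 in the wild-type hearts. The groups did not overlap, and hearts of the same genotype lay close together. The group means were 9.70 ± 0.02 in transgenic and 10.06 ± 0.03 in wild-type hearts (SD, n = 3 each). The log2 difference, always given as transgenic minus wild type, was -0.36 ± 0.05 (SE), which is 1.28-fold lower, with a 95% interval of -0.48 to -0.24 and a limma adjusted p of 0.0243. Leaving out any 1 of the 6 arrays moved the difference only between -0.38 and -0.35, but the adjusted p rose above the threshold of 0.05 each time (limma adjusted p 0.0647 to 0.112). Its within-group SD of 0.03 was small, with 2.33% of all genes having a smaller one.

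Among the 35 measured genes 1 fell and 0 rose at a limma adjusted p below 0.05, where 0.446% of all measured genes fell and 0.547% rose. At an unadjusted p below 0.05, 3 genes were lower (Ccnd1, Ccnd2 and Ccne2) and 1 was higher (Cdk6), against 8.26% lower and 6.32% higher over all genes. The lower count is near the share over all genes and the higher count is under it. The same 4 genes were the ones whose transgenic hearts all lay on 1 side of the wild-type hearts: 3 of 35 were lower in every transgenic heart, against 12.4% of all genes, and 1 of 35 was higher, against 7.79%. The median log2 difference was -0.04 over the list (quartiles -0.10 and 0.01) and -0.01 over all genes. Of the list, 25 genes (71.4%) were lower, against 53.4% of all genes and 62.6% of the genes outside the dimmest 40% of rows.

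**Figure D1:**
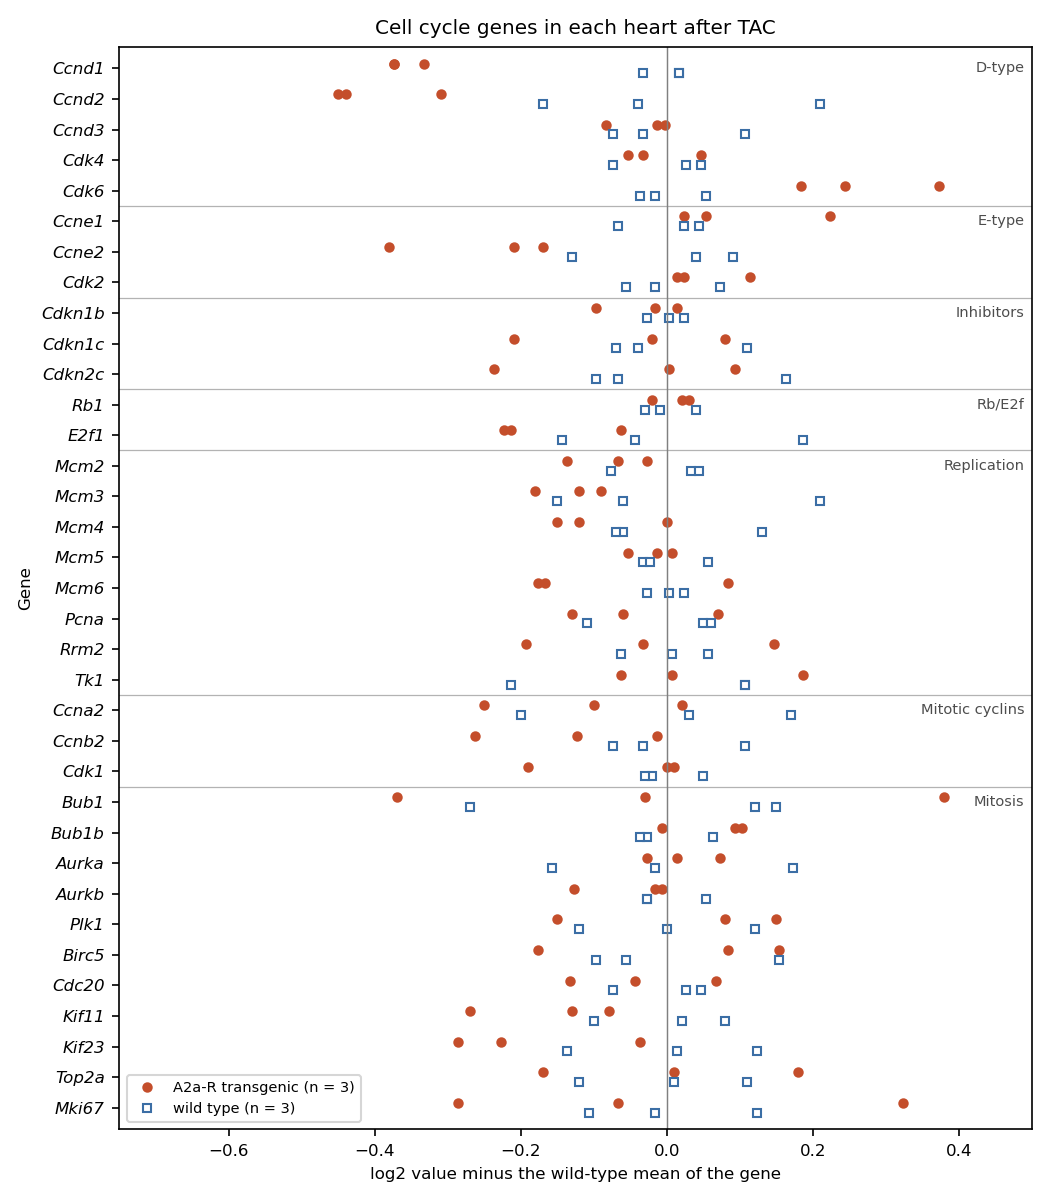
Each row is 1 gene and each symbol 1 heart, plotted as its log2 value minus the wild-type mean of that gene (filled circles, A2a-R transgenic hearts above; open squares, wild-type hearts below; n = 3 each). Ccnd1, Ccnd2, Ccne2 and Cdk6 are the genes whose 2 groups do not overlap, while the widest scatter between hearts is that of Bub1 and Mki67.

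Within the D-type group, Ccnd2 lay as far below wild type as Ccnd1 but with more scatter. Ccnd2, cyclin D2, whose over-expression in mouse cardiomyocytes is known to drive cell cycle entry, had log2 values of 9.70, 9.71 and 9.84 in transgenic hearts and of 10.36, 9.98 and 10.11 in wild-type hearts. All 3 transgenic values were below all 3 wild-type values, and the wild-type hearts spread widest, with replicate 1 highest. The difference was -0.40 ± 0.10 (SE, 95% interval -0.63 to -0.17) and did not pass (limma adjusted p = 0.123). Ccnd3, cyclin D3, had 9.20, 9.21 and 9.13 in transgenic hearts and 9.18, 9.32 and 9.14 in wild-type hearts. Its groups overlapped in part, with a difference of -0.03 and a 95% interval of -0.19 to 0.12.

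Of the kinases that D-type cyclins activate, Cdk6 was higher in every transgenic heart and Cdk4 was not. Cdk6 had log2 values of 8.91, 8.85 and 9.04 in transgenic hearts and of 8.65, 8.72 and 8.63 in wild-type hearts, and every transgenic heart was above every wild-type heart. The difference of 0.27 ± 0.07 (SE, 95% interval 0.11 to 0.42) did not pass (limma adjusted p = 0.131). Cdk4 averaged 10.75 ± 0.05 in transgenic and 10.76 ± 0.06 in wild-type hearts (SD, n = 3 each), a difference of -0.01 with a 95% interval of -0.15 to 0.13. The 4 values past an unadjusted p of 0.05 thus include D-type cyclins below wild type and a partner kinase above it. With a trended and robust variance prior, Ccnd2 and Cdk6 passed as well (limma adjusted p = 0.0355 and 0.0454).

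Whether members of this group moved unequally was set out heart by heart, as the log2 value of 1 gene minus that of another on the same array, which cancels any shift of the whole array. Ccnd1 minus Ccnd3 was 0.49, 0.52 and 0.56 in transgenic hearts and 0.90, 0.76 and 0.89 in wild-type hearts, so the groups did not overlap. Ccnd2 minus Ccnd3 was 0.50, 0.50 and 0.71 in transgenic hearts and 1.18, 0.66 and 0.97 in wild-type hearts, with 1 wild-type heart inside the transgenic range. Cdk6 minus Cdk4 was -1.90, -1.88 and -1.67 in transgenic hearts and -2.04, -2.09 and -2.16 in wild-type hearts. Ccnd1 minus Ccnd2 averaged -0.05 ± 0.09 in transgenic and -0.09 ± 0.19 in wild-type hearts (SD, n = 3 each). The exact two-sided permutation p was 0.1 for Ccnd1 against Ccnd3 and for Cdk6 against Cdk4, the smallest that 3 hearts against 3 allow, 0.2 for Ccnd2 against Ccnd3 and 0.8 for Ccnd1 against Ccnd2. After Benjamini-Hochberg adjustment over the 4 pairs these were 0.2, 0.2, 0.267 and 0.8. These pairs were chosen after the values of the genes had been seen, so a larger change of Ccnd1 than of Ccnd3 is a description.

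**Figure D2:**
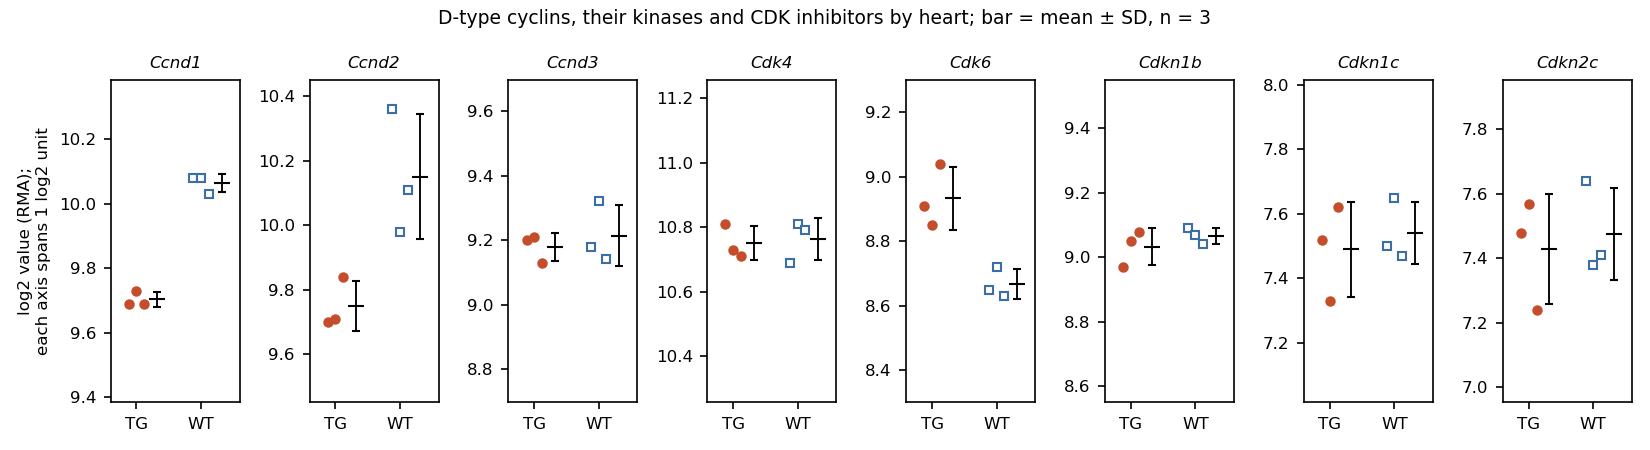
Log2 values of the D-type cyclins, their kinases and the CDK inhibitors in each heart (TG, A2a-R transgenic, filled circles; WT, wild type, open squares; bars, mean ± SD, n = 3), on axes that each span 1 log2 unit. Ccnd1 and Ccnd2 lie lower and Cdk6 higher in the transgenic hearts without overlap, and the groups of the other 5 genes overlap.

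The inhibitors that were measured did not pass. Cdkn1b, which encodes p27 and holds CDKs inactive in resting cells, had log2 values of 8.97, 9.05 and 9.08 in transgenic hearts and 9.09, 9.07 and 9.04 in wild-type hearts. Its difference was -0.03 with a 95% interval of -0.16 to 0.10, and its other, dimmer row differed by -0.13 ± 0.10 (SE). Cdkn1c, which encodes the imprinted inhibitor p57, had 7.52, 7.33 and 7.62 in transgenic hearts and 7.50, 7.65 and 7.47 in wild-type hearts, a difference of -0.05 (95% interval -0.25 to 0.15). Cdkn2c, which encodes p18 and blocks Cdk4 and Cdk6, had 7.48, 7.57 and 7.24 in transgenic hearts and 7.64, 7.38 and 7.41 in wild-type hearts, a difference of -0.05 (95% interval -0.29 to 0.19). In all 3 the transgenic and wild-type values overlapped.

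Of the E-type cyclins, Ccne2 was lower and Ccne1 was not. Ccne2, cyclin E2, had log2 values of 5.35, 5.52 and 5.56 in transgenic hearts and of 5.60, 5.77 and 5.82 in wild-type hearts. The groups did not overlap, but by a narrow gap, and the difference of -0.25 ± 0.08 (SE) did not pass (limma adjusted p = 0.218). Its row is dim: its mean lay under 6.32, the 95th percentile of the mean log2 values of 1027 olfactory receptor genes, used here to mark where the array resolves little. Ccne1 differed by 0.10 (95% interval -0.06 to 0.26) and Cdk2 by 0.05 (-0.09 to 0.19). Rb1, the pocket protein that the G1 kinases phosphorylate, averaged 9.39 ± 0.03 in transgenic and 9.38 ± 0.04 in wild-type hearts (SD, n = 3 each), a difference of 0.01 with a 95% interval of -0.12 to 0.14. E2f1, the activator it restrains, had log2 values of 6.54, 6.69 and 6.53 in transgenic hearts and 6.94, 6.71 and 6.61 in wild-type hearts. That difference was -0.17 ± 0.09 (SE, limma adjusted p = 0.459), with 1 transgenic heart above 1 wild-type heart, and it was -0.07 without wild-type replicate 1.

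The replication genes, which E2F factors are known to switch on, differed little from wild type. They are Mcm2 to Mcm6 of the helicase that unwinds DNA, Pcna, the sliding clamp of the polymerases, and Rrm2 and Tk1, which supply deoxynucleotides. Of these 8 genes 0 passed in limma, and 0 were below an unadjusted p of 0.05; 7 were lower, with a median log2 difference of -0.06. The lowest was Mcm3 at -0.13 (95% interval -0.35 to 0.09) and the highest Tk1 at 0.04 (-0.20 to 0.28). Mcm2, Mcm4, Mcm5 and Mcm6 differed by -0.08, -0.09, -0.02 and -0.09. Pcna averaged 9.17 ± 0.10 in transgenic and 9.21 ± 0.10 in wild-type hearts (SD, n = 3 each), a difference of -0.04 with a 95% interval of -0.22 to 0.14, and its other row gave -0.05. Rrm2 differed by -0.03, and the other row of Tk1 by 0.08. For 7 of the 8 genes the 95% interval lay within 0.3 on either side of no difference, against 13305 of all 19938 genes.

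The 14 measured genes of mitosis showed no called change either. Mki67, which encodes the Ki-67 antigen of dividing cells, had log2 values of 6.71, 7.32 and 6.93 in transgenic hearts and 6.98, 7.12 and 6.89 in wild-type hearts. Transgenic replicates 2 and 1 were the highest and the lowest of all 6 hearts, so the wild-type range lay inside the transgenic one, and the difference was -0.01 with a 95% interval of -0.34 to 0.32. Top2a, the topoisomerase that untangles chromosomes, had 5.87, 6.04 and 5.69 in transgenic hearts and 5.87, 5.97 and 5.74 in wild-type hearts, again with the wild-type values inside the transgenic range, and differed by 0.01 (95% interval -0.22 to 0.24). Its second row, which is dim, differed by 0.11 and did not pass.

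Of the remaining mitotic cyclins and Cdk1, Ccnb2, cyclin B2, had log2 values of 6.94, 7.19 and 7.08 in transgenic hearts and 7.17, 7.31 and 7.13 in wild-type hearts, a difference of -0.13 ± 0.08 (SE, limma adjusted p = 0.499) that was -0.07 without transgenic replicate 1 and -0.08 without wild-type replicate 2. Ccna2, cyclin A2, differed by -0.11 and Cdk1 by -0.06. Kif11, the motor that separates the spindle poles, had 6.15, 6.34 and 6.29 in transgenic hearts and 6.50, 6.32 and 6.44 in wild-type hearts, a difference of -0.16 ± 0.07 (SE, limma adjusted p = 0.372). Kif23, a motor of cytokinesis, had 6.13, 6.32 and 6.07 in transgenic hearts and 6.37, 6.48 and 6.22 in wild-type hearts, a difference of -0.18 ± 0.09 (limma adjusted p = 0.403). In each of Ccnb2, Kif11 and Kif23 the groups overlapped by at least 1 heart. The kinases Plk1, Aurka and Aurkb, the checkpoint kinases Bub1 and Bub1b, the survivin gene Birc5 and the anaphase activator Cdc20 differed by 0.03, 0.02, -0.05, -0.01, 0.06, 0.02 and -0.04 in that order.

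The 95% interval lay within 0.5 on either side of no difference for 34 of the 35 genes and within 0.3 for 23. Over all 19938 genes the counts were 18809 and 13305. The exception in the list at 0.5 was Ccnd2. The widest interval was that of Bub1, from -0.44 to 0.42. In Bub1 the within-group SD of 0.31 was higher than that of 99.3% of all genes, and in Mki67 the SD of 0.23 exceeded that of 97.3%. In the list 7 rows were dim by the olfactory receptor mark, namely Ccne2, Rrm2, Bub1, Bub1b, Birc5, Kif23 and Top2a, against 7109 of all 19938 genes. A difference in dim rows is compressed by the array's background, and levels of different genes were not compared because their probes differ.

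**Figure D3:**
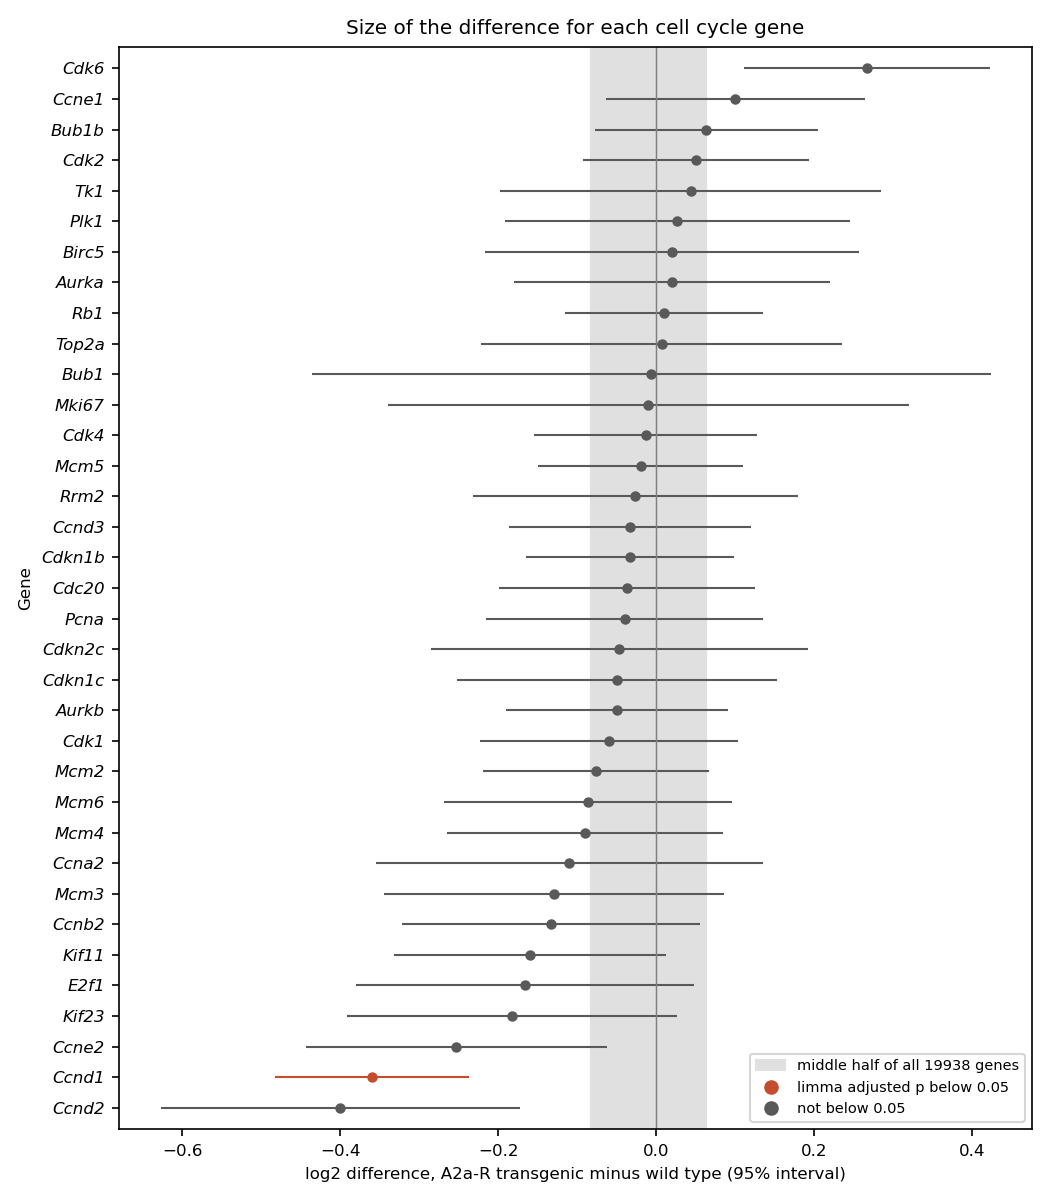
Points are the log2 differences of the 35 genes, A2a-R transgenic minus wild type, with 95% intervals from limma, ordered from the lowest at the bottom (n = 3 hearts per group). Ccnd1 is the one gene at a limma adjusted p below 0.05, and most points lie in or near the grey band, which spans the quartiles of all 19938 genes (-0.08 to 0.06).

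Transcription of many mitotic genes is known to be repressed in resting cells through a cell cycle homology region (CHR), bound by the DREAM complex, often next to CCAAT boxes bound by NF-Y. Promoter windows from RefSeq (GRCm38.p6, 250 bases before to 50 bases after the annotated start) were found for 29 of the 37 listed genes, and each motif was searched on both strands. No window was found for Ccnd1, Ccnd2, Ccne2, Rb1, Mcm4, Ccna2, Aurkb and Cdkn1c, so their promoters were not searched for any motif. The CHR letters TTTGAA or TTCGAA stood in 11 of 13 mitotic genes (84.6%), against 21.7% of 27025 genes with a window, and CCAAT stood in 12 of 13 (92.3%), against 41.1%. These 13 are the listed mitotic genes with a window. They include Ccnb1, whose expression was not analysed and whose window held no CHR letters, and leave out Ccna2 and Aurkb. The E2F letters TTTGGCGC or TTTCCCGC or TTTGGCGG or TTTCCCGG stood in 3 of 7 replication genes (42.9%) and in 1 of 13 mitotic genes (7.69%), against 3.79% of all. The cyclic AMP response element TGACGTCA, searched because the A2a receptor is known to raise cyclic AMP, stood in 1 of the 29, Mcm5, or 3.45%, against 2.03% of all, and its variant TAACGTCA in 0, against 0.289%. The windows of Ccnb2, Cdk1 and Cenpf are shown because Ccnb2 and Cdk1 are mitotic genes that did not pass, while Cenpf, a further mitosis gene described next, rose with the same letters in its window. The window of Mcm6 is shown for its E2F letters. Capitals mark any of the motifs searched, on either strand, so that ATTGG is CCAAT on the opposite strand.
Ccnb2, chr9:70421505-70421804, minus strand: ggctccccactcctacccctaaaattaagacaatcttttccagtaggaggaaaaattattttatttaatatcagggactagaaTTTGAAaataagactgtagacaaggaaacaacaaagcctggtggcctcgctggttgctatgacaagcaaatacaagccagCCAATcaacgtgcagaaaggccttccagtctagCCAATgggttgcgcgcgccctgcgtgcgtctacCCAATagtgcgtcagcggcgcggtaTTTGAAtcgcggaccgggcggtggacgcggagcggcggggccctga
Cdk1, chr10:69352863-69353162, minus strand: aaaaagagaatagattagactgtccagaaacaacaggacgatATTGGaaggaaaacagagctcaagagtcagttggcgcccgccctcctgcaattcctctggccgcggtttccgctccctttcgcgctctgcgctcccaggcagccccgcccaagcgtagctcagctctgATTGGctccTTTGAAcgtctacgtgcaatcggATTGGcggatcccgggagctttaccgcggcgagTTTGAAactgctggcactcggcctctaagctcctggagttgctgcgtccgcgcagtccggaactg
Cenpf, chr1:189688037-189688336, minus strand: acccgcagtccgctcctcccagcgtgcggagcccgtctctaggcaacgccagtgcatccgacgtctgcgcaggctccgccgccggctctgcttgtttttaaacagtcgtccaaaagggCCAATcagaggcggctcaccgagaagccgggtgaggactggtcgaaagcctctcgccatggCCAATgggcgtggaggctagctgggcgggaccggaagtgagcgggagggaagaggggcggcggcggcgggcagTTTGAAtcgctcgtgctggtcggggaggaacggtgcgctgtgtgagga
Mcm6, chr1:128359656-128359955, minus strand: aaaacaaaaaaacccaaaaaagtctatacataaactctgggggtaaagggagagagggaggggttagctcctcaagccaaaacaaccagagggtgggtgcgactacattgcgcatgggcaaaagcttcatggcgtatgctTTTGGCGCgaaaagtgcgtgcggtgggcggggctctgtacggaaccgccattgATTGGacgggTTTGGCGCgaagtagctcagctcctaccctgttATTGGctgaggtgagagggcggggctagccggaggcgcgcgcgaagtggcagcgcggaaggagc
Counted from the annotated start as base 1, a CHR begins at base 5 in Ccnb2 and at base 3 in Cenpf. A match of letters is a description of the window and does not show that a factor binds there.

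Beyond the list, 132 further cell cycle genes of licensing, G1 control and mitosis were read from the same fit, of which 128 were measured. In limma 2 rose and 0 fell at an adjusted p below 0.05, where 0.547% of all genes rose and 0.446% fell, and 126 did not pass. At an unadjusted p below 0.05, 6 of the 128 were higher and 10 lower, both under the shares of all genes, 6.32% and 8.26%. Their median log2 difference was -0.02. Cenpf, a large protein of the outer kinetochore and of microtubules, had log2 values of 7.29, 7.40 and 7.03 in transgenic hearts and of 6.34, 6.08 and 6.08 in wild-type hearts. All transgenic hearts were far above all wild-type hearts. The difference was 1.07 ± 0.11 (SE), 2.10-fold higher, with a 95% interval of 0.82 to 1.33 and a limma adjusted p of 0.00535. The wild-type mean, 6.17, lay under the mark of 6.32 below which the array resolves little, so the size of the difference is approximate. Cenpf passed also when any 1 array was left out (limma adjusted p 0.00734 to 0.0355).

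Wee1, the kinase that restrains Cdk1 before mitosis, also rose, with log2 values of 9.61, 9.60 and 9.49 in transgenic hearts and of 9.17, 9.24 and 9.22 in wild-type hearts. The difference was 0.36 ± 0.06 (SE), 1.28-fold higher (limma adjusted p = 0.0384). The call was lost without any 1 of the 6 arrays (limma adjusted p 0.0645 to 0.128), with arrays centred on their medians (0.0501) and with all rows of the table tested (0.0569). Among the genes that did not pass, the repressor-type factor E2f5 came nearest, at 6.72, 6.80 and 6.70 in transgenic hearts and 6.96, 7.03 and 7.04 in wild-type hearts (difference -0.27 ± 0.06, limma adjusted p = 0.0892). E2f3, an activator, differed by -0.26 ± 0.07 and Cdk7, the CDK-activating kinase, by -0.19 ± 0.06. With the mean of the rows of each gene, E2f3 differed by -0.16 and Cdk7 by -0.14. Rfc2, a subunit of the clamp loader, differed by 0.24 ± 0.07 and Ncapg, a condensin subunit, by 0.23 ± 0.07. Ckap2, a spindle protein, differed by -0.36 ± 0.10. Each of these 5 had groups without overlap and a limma adjusted p between 0.164 and 0.209.

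**Figure D4:**
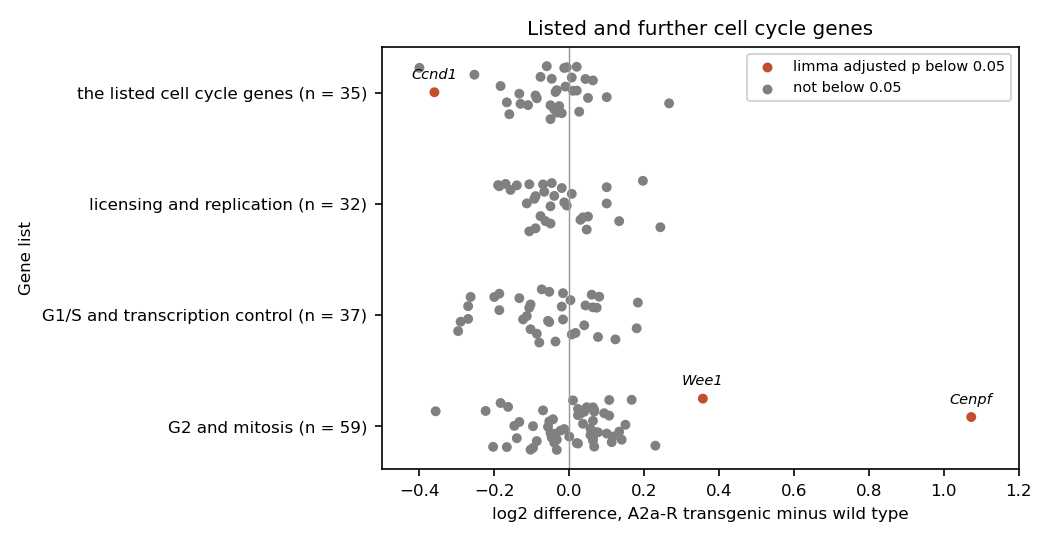
Each point is the log2 difference of 1 gene, A2a-R transgenic minus wild type, for the 35 listed genes and for 128 further cell cycle genes in 3 groups; points are spread vertically only for visibility. Ccnd1, at -0.36, Wee1, at 0.36, and Cenpf, at 1.07, are at a limma adjusted p below 0.05, and Cenpf stands apart from the rest of the 59 genes of G2 and mitosis.

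Heart by heart, the mitotic genes varied within each genotype, and the genotypes overlapped. The mean deviation of the 14 genes from their 6-heart means was -0.08, 0.07 and -0.06 in transgenic replicates 1, 2 and 3, and 0.04, 0.08 and -0.06 in wild-type replicates 1, 2 and 3. Transgenic replicate 2 and wild-type replicate 2 were the highest of their groups, and each genotype had a heart near the bottom. Within the transgenic group, replicate 2 held the highest value in 8 of the 14 genes, against 30.3% of all genes. Within the wild-type group, replicate 3 held the lowest value in 11 of the 14, against 36.3% of all genes. For the 8 replication genes the deviations were -0.03, -0.05 and -0.01 in transgenic hearts and 0.03, 0.06 and -0.0038 in wild-type hearts. The genes of a list share their arrays, so these means are descriptions.

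Markers of macrophages and monocytes, cells that can divide in a loaded heart, differed by genotype in the same hearts. All 12 markers were higher in the transgenic group, with a median of 0.34, and 1 passed, Lgals3, galectin-3. Their summed linear signal was 7713 to 8446 in transgenic and 5642 to 6359 in wild-type hearts, and their mean log2 deviation was 0.12, 0.24 and 0.16 in transgenic hearts and -0.13, -0.13 and -0.26 in wild-type hearts. The highest of these, transgenic replicate 2, was also the transgenic heart highest in the mitotic genes. Wild-type replicate 2 had the highest mitotic mean deviation of all 6 hearts, 0.0779 against 0.0736 in transgenic replicate 2. Its macrophage deviation, -0.1265, was the highest of the wild-type hearts, narrowly above the -0.1282 of replicate 1. Within each genotype, the mitotic genes and the macrophage markers ranked the 3 hearts in the same order. The summed signal of the mitotic genes was 1189 to 1334 in transgenic and 1231 to 1358 in wild-type hearts, and these ranges overlapped. The sums of 2 other marker lists were also apart by genotype, but in each only 1 gene had groups without overlap. Those of 6 smooth muscle and pericyte markers were 7929 to 8661 in transgenic and 6422 to 7074 in wild-type hearts. Of the 6, 1 passed, Acta2, smooth muscle actin, which rose (log2 difference 0.73, limma adjusted p = 0.0106). Myh11, Tagln, Cnn1, Rgs5 and Pdgfrb differed by -0.06, 0.08, -0.07, 0.04 and 0.10, with overlapping groups. Those of 2 erythroid markers were 346 to 381 in transgenic and 529 to 544 in wild-type hearts. Alas2, the erythroid enzyme of haem synthesis, fell (log2 difference -0.77, limma adjusted p = 0.00486). The other erythroid marker, Slc4a1, differed by -0.02 with overlapping groups. Of 8 endothelial markers 7 were lower, with sums of 11050 to 12150 in transgenic and 11715 to 12281 in wild-type hearts. The 8 fibroblast markers had sums of 14294 to 14898 in transgenic and 14436 to 16198 in wild-type hearts, and the 8 cardiomyocyte markers 93232 to 96190 and 91713 to 94890 in the same order. The part of these cell types in the levels of the mitotic genes, the fall of Ccnd1 and the rises of Cenpf and Wee1 was not tested.

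**Figure D5:**
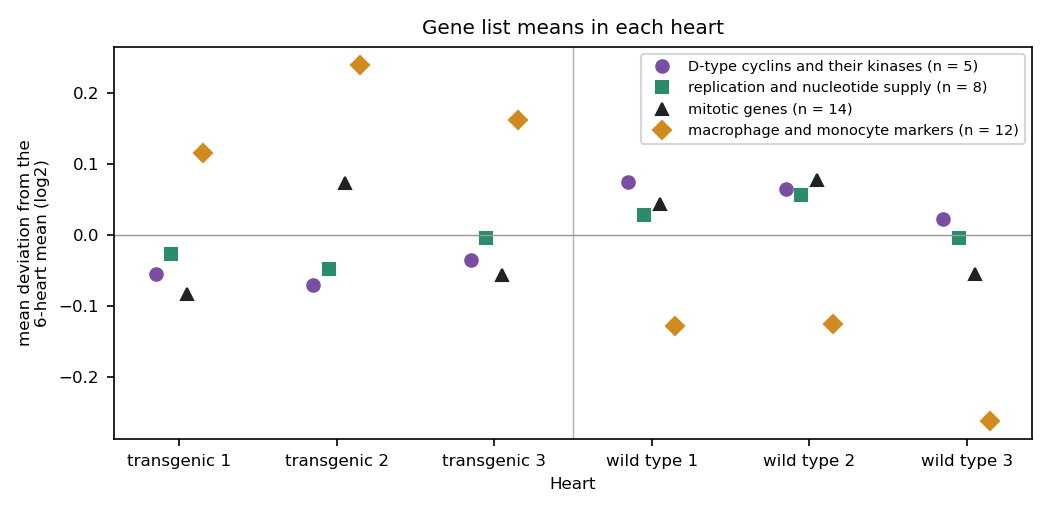
Mean log2 deviation of a gene list from its 6-heart mean in each heart, with transgenic hearts to the left of wild-type hearts. The macrophage and monocyte markers (diamonds) are above 0 in the 3 transgenic hearts and below it in the 3 wild-type hearts, whereas the mitotic genes (triangles) take both signs in each genotype.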

How the data were processed

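The deposited table holds log2 values that the authors made with RMA and Partek, per the submitters' processing notes. The quantile step of RMA brings the arrays' distributions close together, so a global shift in RNA is not visible. They were not equal: over all rows the SD was 2.05, 2.07 and 2.05 in transgenic and 2.08, 2.10 and 2.10 in wild-type hearts. After further quantile normalization Ccnd1 differed by -0.33 and Ccnd3 by 0.0033. For versions, settings and build: not given in the sources used here. The 28853 rows lay between 2.51 and 14.69. GEO's platform annotation gave 21789 rows exactly 1 symbol, 1621 several and 5443 none; 39 of 39 rows of the listed genes had the same symbol in RefSeq GRCm38.p6. All rows with 1 symbol were fitted with limma 3.58.1 (R 4.3.3; lmFit, eBayes, 4.1 prior degrees of freedom), two-sided, with Benjamini-Hochberg adjustment over these rows and a threshold of 0.05; 209 passed, 113 higher and 96 lower. Genes are given by the row of highest mean. Each group is 3 mice, and the number of arrays limits precision: the median SE was 0.0731. The code was tested on simulated data.

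Equal replicate numbers did not pair the hearts (correlations of deviations 0.16, -0.01 and -0.10). No 2 arrays were equal. The gene list, the further genes and the markers were chosen with earlier results of these data known. Values in every heart are given for genes that pass, the 8 of smallest p, up to 5 with the largest difference among those without overlap, the D-type cyclins, the inhibitors, Mki67 and Top2a, and of the further genes for those that pass; the 8 of smallest p among them are named. Of the marker lists not named in the report, median log2 differences were 0.08 for 6 T and NK cell, -0.01 for 3 B cell and -0.10 for 4 neutrophil genes. Alternatives were the replicate number as a block, 2 normalizations, a filter on dim rows, another variance prior, array weights, a threshold of 0.10, all rows, row means per gene and leaving out each array.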

Additional observations from a re-analysis of the deposited data

How the results depend on the processing

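The difference of Ccnd1 lay between -0.38 and -0.33 under every alternative run, but leaving out any 1 array ended its call. With the replicate number as a block, 97 rows changed in place of 209, 0 listed genes were lower, 1 further gene was higher (Cenpf; Wee1 had a limma adjusted p of 0.110) and Ccnd1 stood at -0.36 with a limma adjusted p of 0.0841; equal numbers do not pair these hearts, since replicate 1 of each genotype correlated best with its own number and the other replicates did not. The count of changed rows was 493 without the dimmest 40% of rows, 579 with the trended and robust prior and 476 at an adjusted p below 0.10. The share of higher rows was 54.1%, against 37.3% without the dimmest rows, 41.5% with that prior, 66.7% without wild-type replicate 2 and 69.4% without transgenic replicate 1. Leaving out 1 array gave 84 to 147 changed rows (116 without transgenic replicate 2, 121 without 3; 124, 84 and 92 without wild-type replicates 1, 2 and 3), 0 listed genes lower, 0 higher, and 1 further gene higher, Cenpf, with Ccnd1 between -0.38 and -0.35.

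With the trended and robust prior 2 listed genes were lower and 1 higher. Among the further genes 1 was lower without the dim rows, with array weights and at the looser threshold, E2f5 each time, and 1 was higher with centred arrays and with all rows tested, Cenpf without Wee1. The median of the D-type group was -0.03, and 0.0033 after further quantile normalization and -0.07 to 0.01 with 1 array left out, the 0.01 being without wild-type replicate 2; that of the replication genes was -0.0642 to -0.0283 with 1 array left out. Of 479 recomputed values, 423 kept direction and side of the threshold, moved by less than the spread between hearts, or were counts near the main count. An example of such a count is 301 changed rows with array weights, against 209. In 0 cases did a value past the threshold change sign, but values near 0 that were not past it did: with 1 array left out Mki67 lay between -0.18 and 0.13 and Ccnd3 between -0.07 and 0.02. The median difference of all genes lay between -0.03 and 0.00 under these alternatives, so no scaling moved it by over 0.1. The cause of each lost call was not tested.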
